A study of Mus musculus with 9 samples.

Results

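The genes described here are 10 transcriptional targets and feedback regulators of the Wnt/beta-catenin pathway: Axin2, Nkd1, Sfrp5, Notum, Lgr5, Rnf43, Znrf3, Tcf7, Lef1 and Sp5. They were taken by gene symbol from a list of pathway targets, and all 10 were found among the 24421 symbols of each table. RNA sequencing gave 9 mouse libraries, 2 from kidney and 7 from muscle, and the title of the series names endocytosis of LRP6 induced by Dkk1 and cachexia, a wasting of the body in cancer. In kidney there was 1 library from a wild type mouse given PBS and 1 from a mouse labelled tumour given PBS. In muscle there were 2 libraries of wild type mice given PBS (numbered 1 and 2), and 1 library each of tumour mice given PBS, tumour mice given MDC, wild type mice given DKK1, beta-arrestin knockout mice given PBS and beta-arrestin knockout mice given DKK1. The protein DKK1 is itself an inhibitor of Wnt signalling, secreted by cells and bound by LRP5 and LRP6, and beta-arrestins are adaptors for the uptake of receptors. The labels give no strain, age, tumour type or dose, do not say which beta-arrestin gene was deleted or which muscle was taken, and name MDC by these letters alone. The counts do not show the knockout that the label gives. In CPM, read counts scaled to a common library depth, Arrb1 was at 22.3 CPM (PBS) and 30.7 CPM (DKK1) in those libraries against 18.6 and 22.0 CPM in the wild type PBS pair, and Arrb2 at 10.4 and 8.67 CPM against 8.18 and 8.52 CPM. A count over a whole gene does not show the loss of 1 exon, and those libraries are called here by their label.

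When a Wnt ligand engages a Frizzled receptor with LRP5 or LRP6, beta-catenin is no longer degraded, enters the nucleus and binds TCF/LEF factors, and target genes are transcribed. Many of these targets encode proteins that act back on the pathway. Axin2 is a scaffold of the complex that degrades beta-catenin, Nkd1 binds Dishevelled inside the cell, Sfrp5 is a secreted frizzled-related protein that can bind Wnt ligands, and Notum is a secreted enzyme that removes the lipid from Wnt proteins. Rnf43 and Znrf3 are membrane ubiquitin ligases that remove Frizzled receptors from the cell surface, and Lgr5 is a receptor for R-spondins, which block those ligases. Tcf7 and Lef1 are TCF/LEF factors themselves, and Sp5 is a zinc-finger transcription factor.

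The TCF/LEF factors bind a short DNA core, so the 250 bases upstream of each RefSeq start (build GRCm38.p6) were searched for CTTTGAA and CTTTGAT on both strands. RefSeq start windows were matched for 7 of the 10 genes, with 12 starts; Lgr5, Notum and Znrf3 had no entry. A match was found for 1 of these 7 genes, Sp5, against 8.63% of 27025 genes in the same table. Sp5 is shown because it holds the match, written in capitals (CTTTGAT, 104 to 98 bases before the start, on the strand of the gene). Sfrp5 is shown because its level differed most between muscle libraries among the members with 100 or more counts there, and Axin2 because it is the most widely used reporter of the pathway; neither window holds the core. The windows are chr2:70474673-70474922 on the plus strand for Sp5, chr19:42202253-42202502 on the minus strand for Sfrp5 and chr11:108920099-108920348 on the plus strand for Axin2.
Sp5: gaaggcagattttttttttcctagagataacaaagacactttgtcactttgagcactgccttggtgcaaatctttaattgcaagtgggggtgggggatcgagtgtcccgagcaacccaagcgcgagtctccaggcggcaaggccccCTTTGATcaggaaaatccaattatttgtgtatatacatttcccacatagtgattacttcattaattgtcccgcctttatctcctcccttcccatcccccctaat
Sfrp5: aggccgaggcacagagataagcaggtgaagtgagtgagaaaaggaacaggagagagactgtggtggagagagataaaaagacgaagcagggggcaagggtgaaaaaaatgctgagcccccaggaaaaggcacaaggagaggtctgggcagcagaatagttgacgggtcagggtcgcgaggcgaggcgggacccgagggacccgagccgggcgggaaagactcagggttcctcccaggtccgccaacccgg
Axin2: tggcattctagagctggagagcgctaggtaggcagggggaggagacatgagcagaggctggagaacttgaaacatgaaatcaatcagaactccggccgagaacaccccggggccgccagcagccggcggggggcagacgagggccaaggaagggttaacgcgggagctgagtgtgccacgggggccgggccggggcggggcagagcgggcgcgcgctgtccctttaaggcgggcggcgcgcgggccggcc
A match of letters is not a measured binding site, and the absence of one says only that these letters are not in this window.

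Counts were scaled with TMM factors and are given as CPM, and levels of different genes are compared only as the deposited RPKM, which divides by gene length. Total counts were 44421797 and 42480786 in the kidney libraries and 21358854 to 32607835 in the muscle libraries, and 3 counts, the limit that a count of 0 allows, correspond to 0.0506 to 0.151 CPM. Marker genes matched the tissue labels: 9 skeletal muscle markers summed to 95968 to 269703 CPM in muscle and 162 to 221 CPM in kidney, and 7 kidney tubule markers to 12765 and 25785 CPM in kidney and 4.58 to 87.8 CPM in muscle. Wild type muscle library 1 held the 87.8 CPM and stood lowest in slow fibre markers (8.33 CPM, against 56.4 to 4778 CPM in the other muscle libraries). Its log2 CPM correlated across 15269 genes at r = 0.903 with wild type library 2, and at 0.953 and 0.947 with the tumour MDC and tumour PBS libraries, which carry the same set letter B in the table names. Wild type library 2 carries letter C with the DKK1 and knockout libraries, and the kidney pair carries letter A. Letter and group cannot be told apart except through the wild type pair. The comparison with the wild type library of the same letter is therefore given for muscle. These are bulk tissues, in which fewer cells of a type and less RNA per cell cannot be told apart.

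In kidney the members fell into a high pair and a low remainder. As RPKM, a level per length, the wild type kidney had Sp5 at 13.4 and Notum at 13.2, then Znrf3 at 2.07 and Rnf43 at 1.66, with the other 6 genes at 0.591 or below, down to Lgr5 at 0.05. In wild type muscle the order was different: Sfrp5 stood at 1.83 ± 1.98 RPKM, Axin2 at 1.40 ± 0.866, Znrf3 at 0.605 ± 0.0869, Nkd1 at 0.416 ± 0.436 and Tcf7 at 0.290 ± 0.0553 (SD, n = 2). Neighbours in this order differed by less than the larger of their SDs. The remaining 5 genes averaged below 0.1 RPKM in wild type muscle, with 0 counts of Lgr5 in both libraries.

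**Figure D1:**
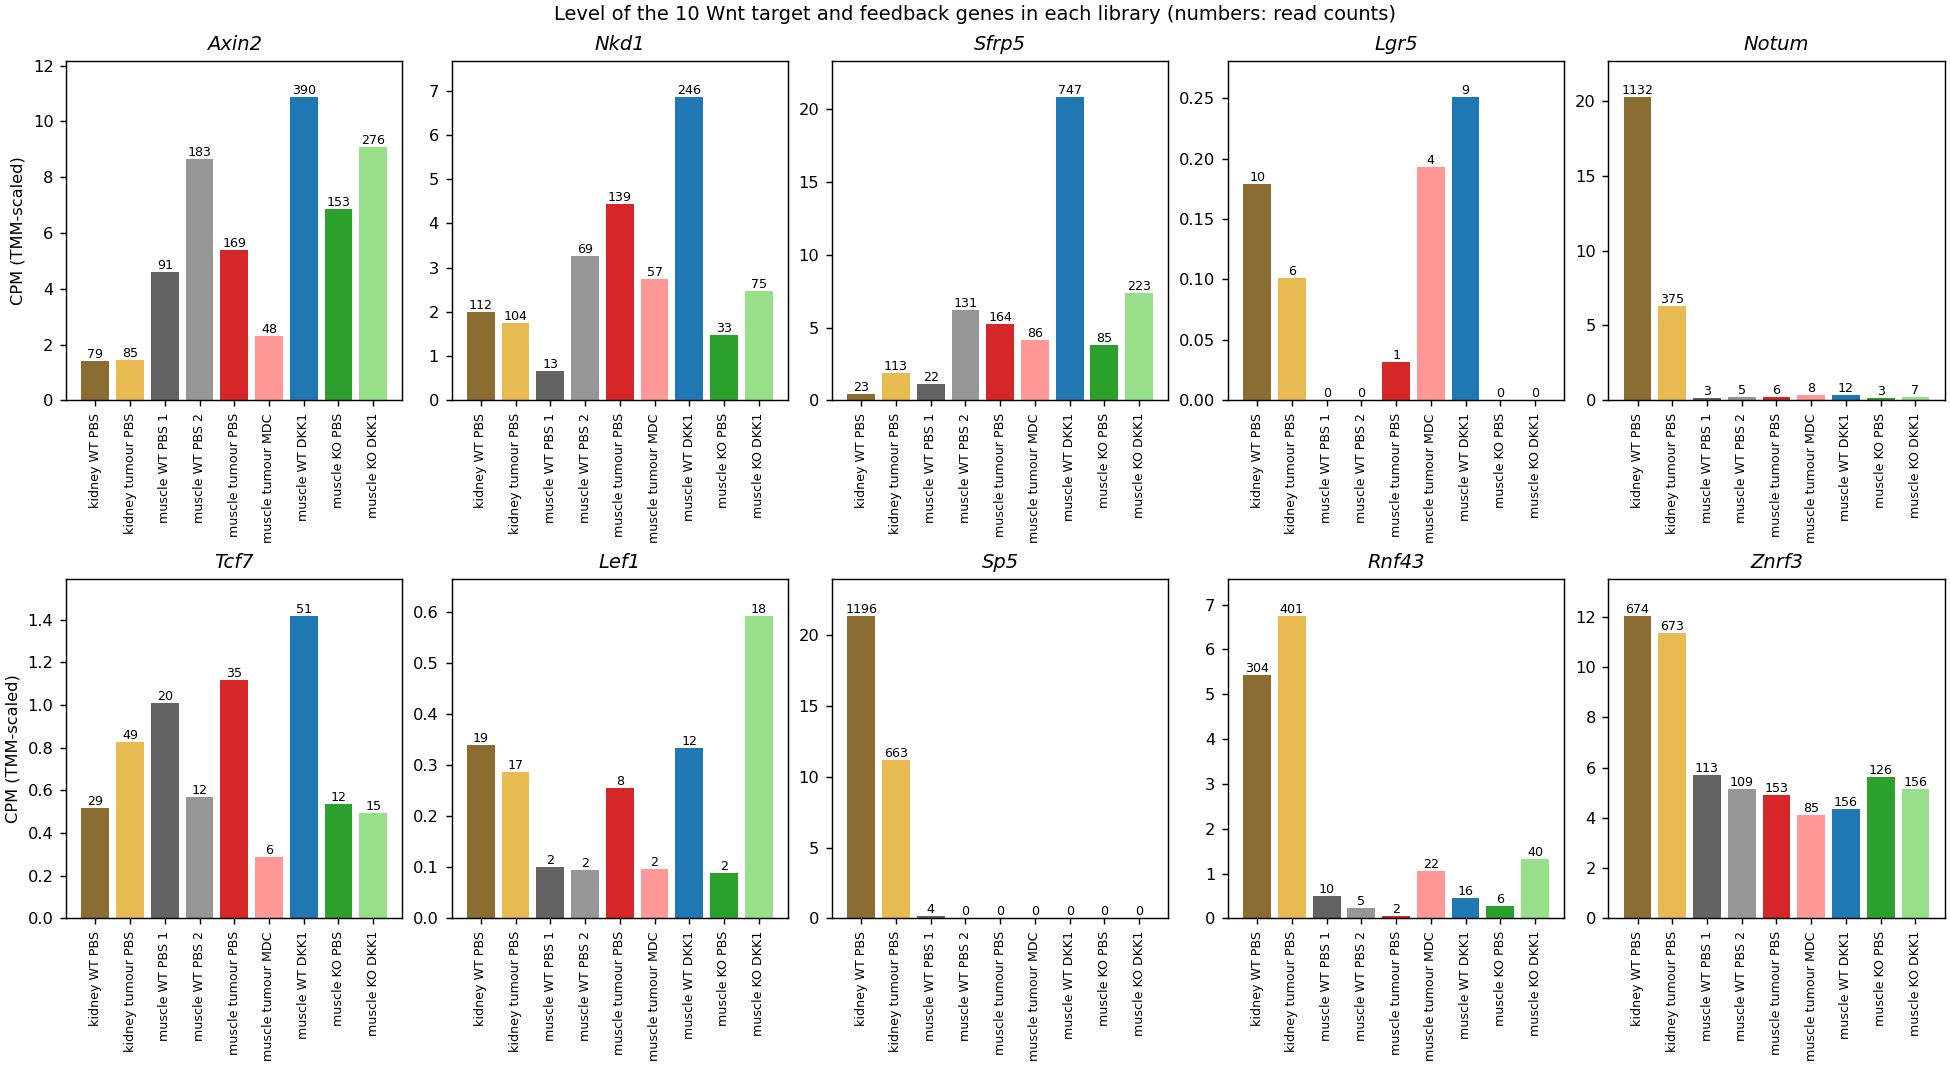
Bars give the TMM-scaled CPM (vertical axes, each gene on its own scale from 0) of the 10 genes in the 9 libraries, with the read counts above the bars; there is 1 library per bar. Sp5 and Notum are high in kidney, Sfrp5, Nkd1 and Axin2 are highest in wild type DKK1 muscle, and Znrf3 varies little among the muscle libraries.

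Of the genes that act inside the cell, Axin2 (chromosome 11, 108920349 to 108950783, plus strand, GRCm38) was at 1.41 CPM in wild type kidney and 1.43 CPM in tumour kidney. In muscle it was at 4.59 and 8.66 CPM in the wild type pair, 5.41 in tumour PBS, 2.31 in tumour MDC, 10.9 in wild type DKK1, 6.85 in knockout PBS and 9.10 in knockout DKK1. All 7 muscle libraries were above both kidney libraries, tumour MDC was the lowest of the muscle libraries and wild type DKK1 the highest. Nkd1 (chromosome 8, 88521354 to 88594884, plus strand) was at 2.00 and 1.75 CPM in wild type and tumour kidney. In muscle it ranged from 0.656 CPM (13 counts) in wild type library 1 to 6.85 CPM (246 counts) in wild type DKK1, with 3.27 in wild type library 2, 4.45 in tumour PBS, 2.75 in tumour MDC, 1.48 in knockout PBS and 2.47 in knockout DKK1. Wild type library 1 is the lowest for Nkd1, and the wild type pair encloses every other muscle library except tumour PBS and wild type DKK1.

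Of the secreted inhibitors, Sfrp5 (chromosome 19, 42197971 to 42202252, minus strand) was at 0.411 CPM (23 counts) in wild type kidney and 1.90 CPM (113 counts) in tumour kidney. In muscle it was at 1.11 and 6.20 CPM in the wild type pair (22 and 131 counts), 5.25 in tumour PBS, 4.14 in tumour MDC, 20.8 in wild type DKK1 (747 counts), 3.81 in knockout PBS and 7.35 in knockout DKK1. Wild type DKK1 stands above all other muscle libraries, and wild type library 1 below them. Notum (chromosome 11, 120653788 to 120661175, minus strand) was at 20.2 CPM (1132 counts) in wild type kidney and 6.32 CPM (375 counts) in tumour kidney, and had 3 to 12 counts in each muscle library (0.134 to 0.385 CPM). Its exons share 708 of 2408 bases with the antisense gene Notumos and 210 with Myadml2os, neither of which is a row of the tables, and without a stated strand setting their reads cannot be told from those of Notum.

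Of the receptor and ligase genes, Znrf3 (chromosome 11, 5276324 to 5444847, minus strand) was the steadiest: 12.0 and 11.3 CPM in wild type and tumour kidney, and 4.10 to 5.70 CPM over the 7 muscle libraries, with the wild type pair at 5.70 and 5.16 CPM. Its partner Rnf43 (chromosome 11, 87662722 to 87735539, plus strand) was at 5.43 and 6.76 CPM in wild type and tumour kidney. In muscle Rnf43 had 10 and 5 counts in the wild type pair, 2 in tumour PBS, 22 in tumour MDC, 16 in wild type DKK1, 6 in knockout PBS and 40 in knockout DKK1, which is 0.0640 to 1.32 CPM. All muscle libraries were below both kidney libraries for both ligases. Lgr5 (chromosome 10, 115450311 to 115587780, minus strand) was near the limit of detection everywhere, with 10 and 6 counts in wild type and tumour kidney, 9 in wild type DKK1 muscle, 4 in tumour MDC, 1 in tumour PBS and 0 in both wild type PBS and both knockout libraries.

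Of the nuclear factors, Sp5 (chromosome 2, 70474923 to 70477729, plus strand), whose upstream window is printed above, was at 21.4 CPM (1196 counts) in wild type kidney and 11.2 CPM (663 counts) in tumour kidney. In muscle it had 4 counts in wild type library 1 and 0 in the other 6 libraries. Wild type library 1 is also the muscle library with the highest sum of kidney tubule markers, including 56.7 CPM of Kap against 1.87 to 17.0 CPM in the other 6; the part of kidney RNA in these 4 counts was not tested. Tcf7 (chromosome 11, 52252371 to 52283014, minus strand) had 29 and 49 counts in wild type and tumour kidney, and in muscle 20 and 12 in the wild type pair, 35 in tumour PBS, 6 in tumour MDC, 51 in wild type DKK1, 12 in knockout PBS and 15 in knockout DKK1. Lef1 (chromosome 3, 131110471 to 131224356, plus strand) had 19 and 17 counts in kidney, 2 in each of wild type PBS, tumour MDC and knockout PBS muscle, 8 in tumour PBS, 12 in wild type DKK1 and 18 in knockout DKK1. Both TCF/LEF factors were thus low in all 9 libraries, at most 1.42 CPM for Tcf7 and 0.593 CPM for Lef1. T cells express both genes strongly. In muscle 11 T cell markers summed to 0.757 to 4.21 CPM. In wild type and tumour kidney they summed to 16.7 and 6.88 CPM, with Bcl11b the largest part of both sums. Cd3d was at 0 in 3 of the 7 muscle libraries, among them wild type DKK1, where Cd3e was at 1.70 CPM. In tumour PBS muscle Cd3e was at 0 and Cd3d at 0.160 CPM. The part of T cells in the Tcf7 and Lef1 values was not tested. The exons of Lef1 share 1208 of 8788 bases with an antisense gene and those of Axin2 share 209 of 5506, neither of them a row of the tables.

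Between tissues, the wild type kidney had far more Sp5 and Notum than wild type muscle. Sp5 was 106-fold higher than in wild type muscle library 1 (95% interval 41.2 to 389, counting error only). In library 2 it had 0 counts, and the 95% interval of that ratio began at 122-fold. Notum was 134-fold (45.6 to 649) and 85.5-fold (36.5 to 264) higher. Both were higher in edgeR's quasi-likelihood test over all 9 libraries, Sp5 with a log2 change of 7.70 ± 1.47 (SE) and an adjusted p of 0.00297 and Notum with 6.67 ± 1.28 and an adjusted p of 0.00306. That test called 15.7% of 16711 genes and 2 of the 9 members it could test, all but Lgr5. In this fit the single kidney library is assumed to vary like the wild type muscle pair. DESeq2 called Notum and not Sp5 (adjusted p 0.396), and also called Sfrp5 lower and Rnf43 higher in kidney.

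Rnf43 was 10.8-fold (5.77 to 22.7) and 23.0-fold (9.73 to 71.2) higher in wild type kidney than in wild type muscle libraries 1 and 2, with a log2 change of 3.86 ± 1.36 and an adjusted p of 0.0800 in edgeR. Znrf3 was 2.11-fold (1.73 to 2.60) and 2.33-fold (1.90 to 2.89) higher, with an adjusted p of 0.461. By a rule of size, at least 2-fold against each wild type muscle library with at least 100 counts in the higher library, 4 members were higher in kidney (Sp5, Notum, Rnf43 and Znrf3), with 24.3% of all genes assessed higher, and 0 were lower, with 14% lower. The rule could assess 7 members, since Lgr5, Tcf7 and Lef1 stayed under 100 counts. Axin2 went the other way, at 0.307 and 0.163 times the muscle level, and Sfrp5 at 0.370 (0.197 to 0.696) and 0.0663 (0.0406 to 0.104) times; neither had 100 counts in both pairs. Against library 2 alone both were past the rule, and against library 1 alone Nkd1 was also higher. Of the 7 members assessed, Sp5, Notum, Rnf43 and Nkd1 reached 100 counts only in the kidney library, which had more total counts than either muscle library. Axin2 and Sfrp5 reached 100 counts only in wild type muscle library 2. Among the pathway genes that are not members, 20 of the 69 assessed were higher in kidney and 16 lower. Higher were the ligand Wnt9b (10.7 CPM against 0.303 and 0.189) and the secreted antagonists Sostdc1 (25.3 against 0.505 and 0.189) and Sfrp1 (114 against 2.57 and 5.63), and lower were the ligand Wnt9a (1.36 against 17.4 and 23.2) and the receptor Fzd9 (0.0357 against 30.9 and 23.0).

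In kidney the secreted inhibitors differed in opposite directions between the tumour and the wild type library. Sfrp5 was 4.63-fold higher in the tumour library (95% interval 2.94 to 7.60) and Notum was at 0.312 times the wild type level (0.277 to 0.351). Sp5 was at 0.523 times (0.475 to 0.575), just short of the 2-fold rule. Axin2, at 1.01 times (0.738 to 1.40), Nkd1, at 0.876 times (0.664 to 1.15), and Znrf3, at 0.942 times (0.845 to 1.05), had intervals that include 1, and Rnf43 was at 1.24 times (1.07 to 1.45). With 1 library per group there was no test and no replicate check, and the intervals cover counting error only. Of the 6 members with 100 or more counts, 1 was higher, with 5.61% of all genes assessed higher, and 1 lower, with 4.07% lower. The median log2 change was -0.14 over these 6 members and 0.00 over all genes assessed. Sfrp5, the member counted as higher, was among the 6 only through its 113 counts in the tumour library, against 23 in the wild type library. Over all members, including those under 100 counts, the median was also -0.14.

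**Figure D2:**
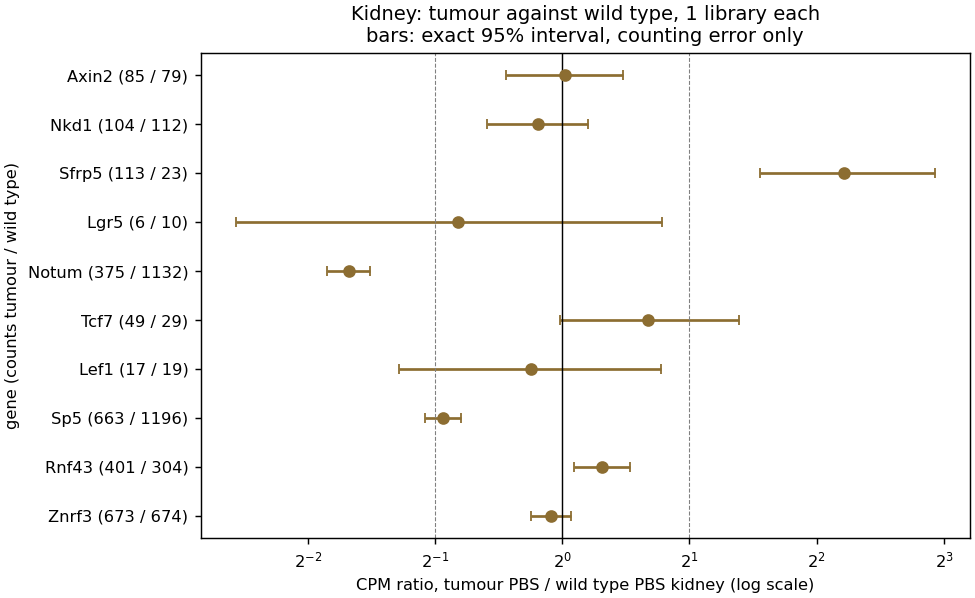
Points give the CPM ratio of tumour PBS to wild type PBS kidney (horizontal axis, log scale) for the 10 genes, with counts in both libraries beside the names; bars are exact 95% intervals for counting error only, and dashed lines mark 2-fold. Sfrp5 lies beyond 2-fold higher, Notum beyond 2-fold lower and Sp5 just inside the lower line.

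Cell markers differed between the same 2 kidney libraries. All 7 adipocyte markers were higher in the tumour library and summed to 1122 CPM against 110 CPM, with adiponectin (Adipoq) at 92.7 against 7.35 CPM. Tubule markers summed to 12765 CPM against 25785 CPM, 3 of 7 higher and 4 lower, with Kap at 2016 against 18003 CPM and Umod at 6035 against 2499 CPM. All 5 neutrophil markers were higher in the tumour library (13.2 against 0.626 CPM) and all 11 T cell markers lower. The part of these cell types in the Sfrp5, Notum and Sp5 values was not tested. Among other pathway genes, 5 of 67 assessed were higher in the tumour kidney and 1 was lower. The ligands Wnt7b (26.7 against 7.42 CPM) and Wnt9a (4.28 against 1.36 CPM) and the transcription factors Sox9 (4.80 against 0.375 CPM) and Myc (11.2 against 3.81 CPM) were higher, and the secreted antagonist Frzb (40.3 against 86.7 CPM) was lower.

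In muscle the 2 wild type PBS libraries already differed in several members, which sets the scale for every other comparison. Library 2 was 5.58-fold (3.54 to 9.21) above library 1 for Sfrp5, 4.98-fold (2.73 to 9.81) for Nkd1 and 1.89-fold (1.46 to 2.45) for Axin2. Znrf3 was at 0.904 times (0.689 to 1.19). As mean ± SD, the wild type pair had 3.66 ± 3.60 CPM of Sfrp5, 1.96 ± 1.85 of Nkd1, 6.63 ± 2.88 of Axin2 and 5.43 ± 0.385 of Znrf3 (n = 2). Library 2 also had higher sums of adipocyte markers (1287 against 323 CPM), endothelial markers (425 against 234 CPM) and fibroblast markers (1008 against 504 CPM) and a lower sum of skeletal muscle markers (137825 against 269703 CPM). With this pair as the only replicates, edgeR called 0 of 15269 genes in each of the 8 muscle contrasts, and 7 members could be tested (not Lgr5, Notum and Sp5). The common biological coefficient of variation was 0.498. The comparisons with wild type PBS muscle all share this pair, so their values are not independent of each other.

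**Figure D3:**
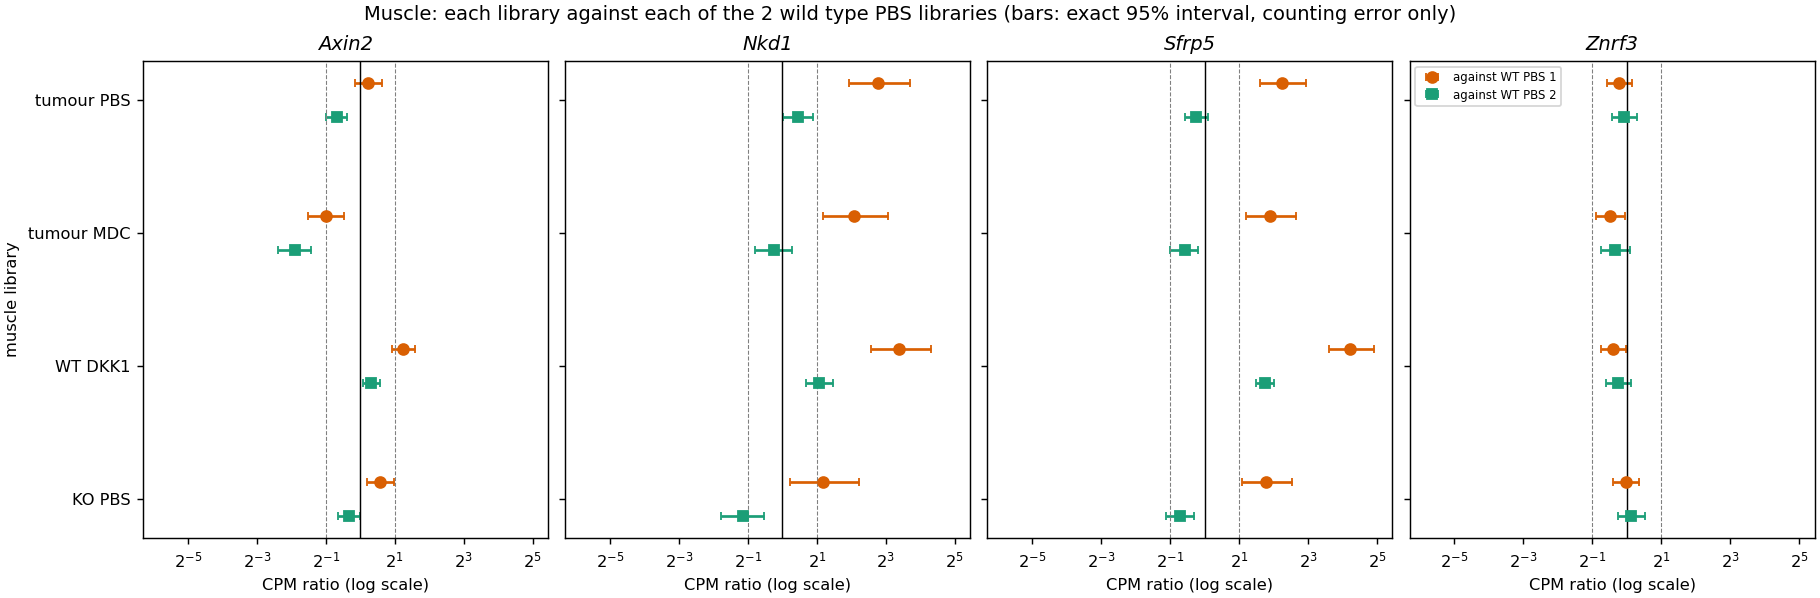
Points give the CPM ratio of 4 muscle libraries to wild type PBS library 1 (circles) and library 2 (squares) for the 4 members with 100 or more counts in muscle, on a log scale; bars are exact 95% intervals for counting error only and dashed lines mark 2-fold. For Nkd1 and Sfrp5 the points of a library differ by the gap between the wild type libraries. Of the 4 libraries only wild type DKK1 lies more than 2-fold above both. Nkd1 in knockout PBS lies more than 2-fold above library 1 and more than 2-fold below library 2. For Znrf3 all points lie within 2-fold.

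In muscle, tumour mice given PBS had Axin2 and Sfrp5 within the range of the wild type pair and Nkd1 above it. Axin2 at 5.41 CPM and Sfrp5 at 5.25 CPM lay between the wild type libraries, and Nkd1 at 4.45 CPM was above both, 6.77-fold (3.83 to 13) over library 1 and 1.36-fold (1.01 to 1.84) over library 2. Znrf3 at 4.89 CPM was at 0.858 times (0.668 to 1.10) and 0.948 times (0.737 to 1.22), and scaling by total counts alone turned its mean log2 change from -0.15 to 0.03. By size, 0 of the 4 members assessed were higher (1.34% of all genes) or lower (0.399%). Against library 1 alone, which shares the set letter, Nkd1 and Sfrp5 (4.72-fold, 3.02 to 7.74) would both pass. edgeR called 0% of genes, 160 had an unadjusted p under 0.05, and the smallest unadjusted p of a member was 0.307 (Rnf43, adjusted p = 1). Neutrophil markers were above both wild type libraries for 5 of 5 (328 against 14 and 0.521 CPM) and endothelial markers for 3 of 5 (482 against 234 and 425 CPM), and their part in the member values was not tested. Of 60 other pathway genes assessed, 0 passed the size rule in either direction. A test of whether tumour differed between kidney and muscle, chosen after the member values were seen, called 0% of 16711 genes in edgeR (126 at an unadjusted p under 0.05), with log2 differences of 1.68 ± 1.73 for Sfrp5 and -1.66 ± 1.92 for Notum (adjusted p = 1.00 for both).

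MDC was compared with PBS in tumour muscle. Axin2 was lower with MDC, 2.31 against 5.41 CPM, a ratio of 0.428 (0.304 to 0.593), and was below both wild type libraries as well, at 0.503 times library 1 (0.347 to 0.722) and 0.267 times library 2 (0.190 to 0.369). Nkd1 was at 0.618 times (0.446 to 0.847), Sfrp5 at 0.790 times (0.601 to 1.03) and Znrf3 at 0.837 times (0.634 to 1.10) the tumour PBS level. Among the low genes, Tcf7 had 6 counts against 35, a ratio of 0.258 (0.0888 to 0.621), and Rnf43 had 22 against 2, a ratio of 16.6 (4.07 to 145). Of the 4 members assessed, 1, Axin2, passed the size rule as lower, with 3.39% of all genes lower. As higher 0 passed, with 1.13% of all genes higher. All 4 were assessed only through their counts in tumour PBS, where each was higher. Counts in tumour PBS against MDC were 169 against 48 (Axin2), 139 against 57 (Nkd1), 164 against 86 (Sfrp5) and 153 against 85 (Znrf3). In edgeR 0% of genes were called (33 at an unadjusted p under 0.05), and Axin2 had a log2 change of -1.22 ± 0.99 (adjusted p = 1). Against wild type PBS, 0 of 3 members assessed were higher (0.709%) or lower (0.673%) and edgeR called 0% (211 unadjusted), with Axin2 at a log2 change of -1.52 ± 0.91 (adjusted p = 1). Axin2 and Sfrp5 could not pass here, since their pairs with library 1 (48 against 91 and 86 against 22 counts) stayed under 100 counts. Without wild type library 1, Axin2 would pass as lower. Over library 1, which shares the set letter, Nkd1 was 4.19-fold (2.26 to 8.33) and Sfrp5 3.73-fold (2.31 to 6.26) higher. Their ratios to library 2 were 0.841 (0.582 to 1.21) and 0.668 (0.503 to 0.884). Znrf3 was at 0.718 times library 1 (0.535 to 0.960) and 0.794 times library 2 (0.591 to 1.06).

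Beside these values, all 5 endothelial, 6 fibroblast and 7 adipocyte markers were lower in the MDC library than in tumour PBS (sums of 347 against 482, 530 against 740 and 530 against 1033 CPM), and all 9 skeletal muscle markers were higher (235233 against 166521 CPM). All 5 neutrophil markers were lower with MDC (38.2 against 328 CPM), and all 6 slow fibre markers were higher (1137 against 162 CPM). The part of these markers in the member values was not tested. Of the other pathway genes, 1 of 56 assessed passed against tumour PBS: the secreted antagonist family member Dkk3 at 150 against 53.8 CPM. Against wild type PBS, 1 of 59 passed: the cyclin gene Ccnd1, at 6.89 CPM against 20.8 and 23.3 CPM.

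DKK1 was compared with PBS in wild type muscle, where the secreted inhibitor Sfrp5 and the intracellular inhibitor Nkd1 were higher and Axin2 was higher by less. Sfrp5 was 3.35-fold (2.78 to 4.07) above wild type library 2, which shares the set letter, and 18.7-fold (12.3 to 30.1) above library 1. Nkd1 was 2.1-fold (1.60 to 2.78) and 10.4-fold (5.99 to 19.9) higher in the same order. Axin2 was 1.25-fold (1.05 to 1.5) and 2.36-fold (1.88 to 3.0) higher, and Tcf7, with 51 counts, 2.50-fold (1.31 to 5.15) and 1.41-fold (0.824 to 2.49). Znrf3 was at 0.842 times (0.655 to 1.09) and 0.761 times (0.594 to 0.979), and scaling by total counts alone turned its mean log2 change from -0.32 to 0.15.

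Of the 4 members assessed, 2 passed the size rule as higher (Sfrp5 and Nkd1), with 2.37% of all genes higher, and 0 as lower, with 0.24% lower; against library 1 alone Axin2 would pass too. The median log2 change was 1.47 over these 4 members and 0.00 over all genes assessed. Nkd1 was among the 4 only through its 246 counts in the DKK1 library, against 13 and 69 in the wild type pair. Over all 10 members, including those under 100 counts, the median was 0.81. In edgeR 0% of genes were called, and 198 had an unadjusted p under 0.05, among them Sfrp5 with a log2 change of 2.50 ± 0.92, an unadjusted p of 0.0164 and an adjusted p of 1. Nkd1 had 1.80 ± 1.1 and Axin2 0.71 ± 0.82 (adjusted p = 1 for both). DESeq2 called 4 genes in this comparison and no member.

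Markers of several cell types moved with these genes in the wild type DKK1 library. All 5 endothelial markers were above both wild type libraries (sum of 814 against 234 and 425 CPM), as were all 6 fibroblast markers (1675 against 504 and 1008 CPM) and all 4 Schwann cell markers (314 against 19.2 and 119 CPM). Adipocyte markers, at 1092 CPM against 323 and 1287, were above both for 1 of 7, and skeletal muscle markers, at 95968 against 269703 and 137825 CPM, were below both for 7 of 9. The part of these cell types in the Sfrp5, Nkd1 and Axin2 values was not tested. Among other pathway genes, 2 of 64 assessed were higher and 1 lower: the receptor gene Fzd3 (3.67 CPM against 0 and 1.33), the Dishevelled-binding Dact1 (11.6 against 4.24 and 5.25) and, lower, Dkk3 (33.7 against 171 and 90.2).

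**Figure D4:**
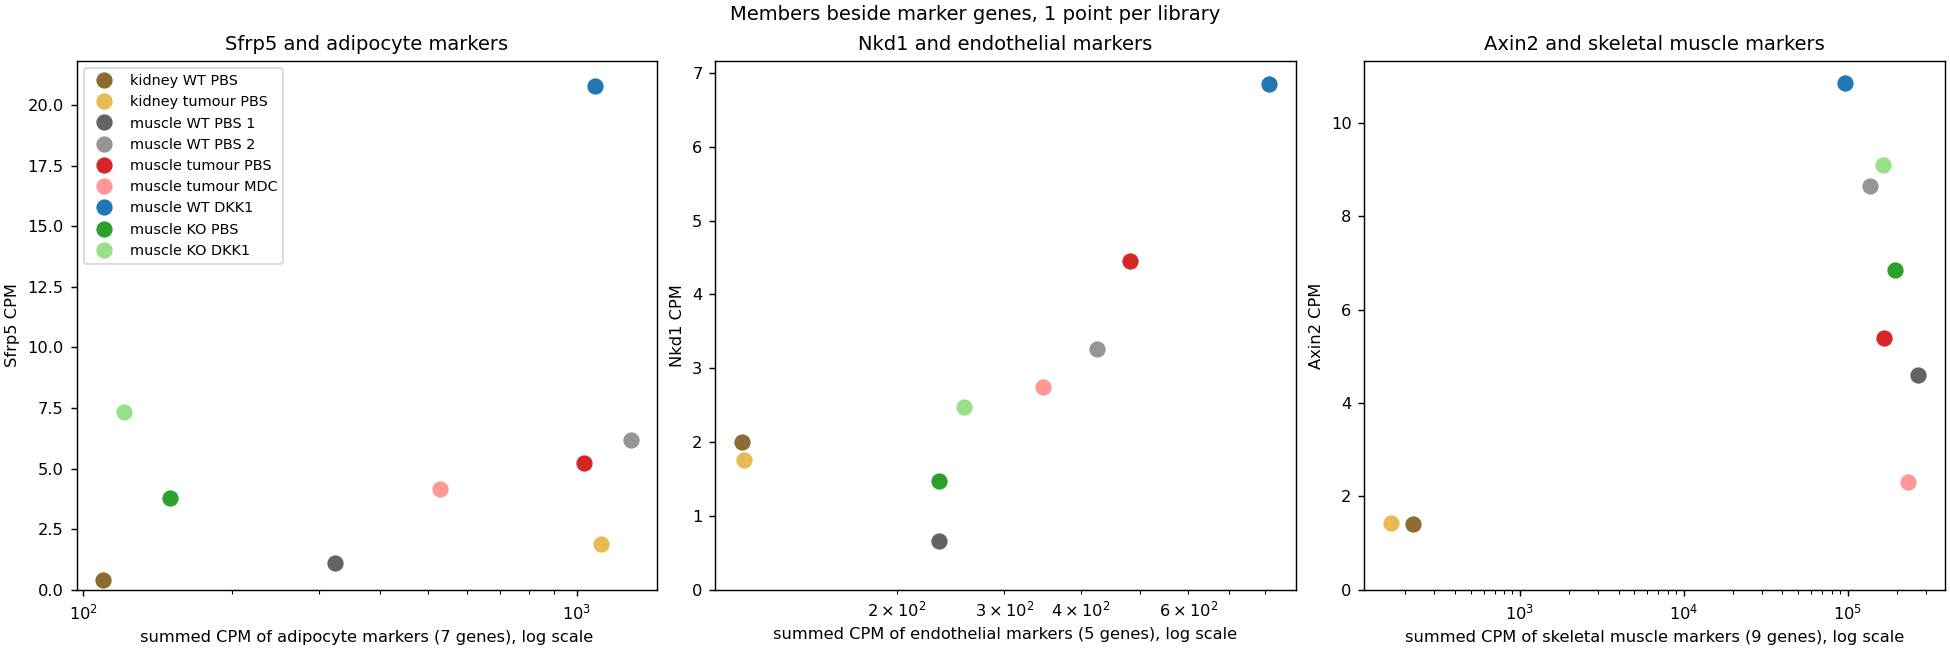
Each point is 1 library; vertical axes give the CPM of Sfrp5, Nkd1 and Axin2 and horizontal axes (log scale) the summed CPM of adipocyte, endothelial and skeletal muscle markers, a pairing chosen after the values were seen. Sfrp5 is at 20.8 CPM in wild type DKK1 and 5.25 in tumour PBS, where adipocyte sums are 1092 and 1033 CPM. In those libraries the sums of fibroblast (1675 and 740 CPM), endothelial (814 and 482 CPM) and Schwann cell markers (314 and 79.4 CPM) are higher in wild type DKK1. Skeletal muscle (95968 and 166521 CPM) and neutrophil sums (0.696 and 328 CPM) are lower there. Fibroblast, Schwann cell and neutrophil sums are not plotted. Nkd1 is highest in the library with the highest endothelial sum, and Axin2 is higher in every muscle library than in kidney. The part of any cell type in these values was not tested.

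The library labelled knockout PBS lay between the 2 wild type PBS libraries for Axin2 (6.85 CPM), Nkd1 (1.48 CPM), Sfrp5 (3.81 CPM) and Znrf3 (5.64 CPM). Each of Axin2, Nkd1 and Sfrp5 was above library 1 and below library 2, its counterpart by set letter, at 0.791 times (0.634 to 0.986), 0.452 times (0.289 to 0.695) and 0.614 times (0.462 to 0.813) library 2. By size, 0 of 3 members assessed were higher (0.754% of all genes) or lower (0.607%), and edgeR called 0% (172 at an unadjusted p under 0.05), with a smallest unadjusted p of a member of 0.739 (Nkd1). Sfrp5 could not pass here, since its pair with library 1 (85 against 22 counts) stayed under 100 counts. All 7 adipocyte markers were below both wild type libraries, with a sum of 150 CPM against 323 and 1287, and their part in the member values was not tested. Of 59 other pathway genes, 1 was lower, the ligand Wnt5b (2.19 CPM against 9.74 and 5.82).

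Within the libraries labelled knockout, DKK1 was set against PBS. Sfrp5 was 1.93-fold (1.5 to 2.51) higher with DKK1, Nkd1 1.67-fold (1.10 to 2.60) and Axin2 1.33-fold (1.09 to 1.63), all in the direction seen in wild type muscle and each under 2-fold. Among the low genes, Rnf43 had 40 counts against 6, a ratio of 4.91 (2.07 to 14.2), and Lef1 had 18 against 2, a ratio of 6.62 (1.59 to 58.9). By size, 0 of 3 members assessed were higher (2.21%) or lower (0.692%), and edgeR called 0% (43 at an unadjusted p under 0.05). All 6 slow fibre, 6 fibroblast and 5 endothelial markers were higher with DKK1, the slow fibre sum at 4778 against 56.4 CPM; their part in the member values was not tested. Among other pathway genes 8 of 60 assessed were higher and 0 lower, led among the secreted regulators by Rspo3, an R-spondin (9.99 against 1.03 CPM), and Dkk2 (8.67 against 1.39 CPM), with Sox9 (7.05 against 1.97 CPM) and Dact1 (7.75 against 3.54 CPM) among targets.

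Between the 2 DKK1 libraries, the one labelled knockout had less Nkd1, at 0.361 times the wild type DKK1 level (0.275 to 0.469), and less Sfrp5, at 0.353 times (0.303 to 0.411). Axin2 was at 0.838 times (0.715 to 0.980), Znrf3 at 1.18 times (0.942 to 1.49), Tcf7 at 0.348 times (0.182 to 0.629) and Rnf43 at 2.96 times (1.62 to 5.66). Nkd1 and Sfrp5 passed the size rule as lower among 4 members assessed, with 10% of all genes lower. As higher 0 passed, with 2.65% of all genes higher. Nkd1 was assessed only through its 246 counts in wild type DKK1, against 75 in the library labelled knockout. The same wild type DKK1 library gave the calls of Nkd1 and Sfrp5 as higher against wild type PBS. edgeR called 0% of genes (213 at an unadjusted p under 0.05), with log2 changes of -1.47 ± 1.36 for Nkd1 and -1.5 ± 1.13 for Sfrp5 (adjusted p = 1 for both). All 7 adipocyte, 6 fibroblast, 5 endothelial and 4 Schwann cell markers were lower in the library labelled knockout, with adipocyte sums of 121 against 1092 CPM and endothelial sums of 258 against 814 CPM, and their part in these values was not tested. Of 65 other pathway genes, 6 were higher and 5 lower, such as Rspo3 (9.99 against 2.70 CPM) and, lower, the cyclin gene Ccnd1 (19.5 against 42.2 CPM).

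Whether the DKK1 difference itself depended on the knockout label was tested as an interaction in edgeR, which called 0% of genes (39 at an unadjusted p under 0.05). The log2 DKK1 difference in the libraries labelled knockout minus that in wild type was -1.56 ± 1.46 for Sfrp5, -1.06 ± 1.79 for Nkd1 and -0.30 ± 1.28 for Axin2 (adjusted p = 1.00 for each). Of the 4 groups in this test, 3 held 1 library each. The wild type PBS group pools libraries 1 and 2, which carry different set letters. Against library 2 alone, which shares the letter of the other 3 groups, the wild type log2 DKK1 differences were 1.74 (Sfrp5), 1.05 (Nkd1) and 0.32 (Axin2). In the libraries labelled knockout they were 0.94, 0.72 and 0.41, so for Axin2 the larger difference was then in the libraries labelled knockout.

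Across the 7 muscle libraries, the non-member genes most like each well-counted member in log2 CPM were listed from 11302 genes with 100 or more counts in at least 1 library. Nkd1 was most like Sema3g (r = 0.994), Msx1os (0.993) and Susd2 (0.992): Sema3g went from 5.91 CPM in wild type library 1 to 43.6 CPM in wild type DKK1. Sfrp5 was most like Lats2 (0.990), Dusp15 (0.987) and Axl (0.984), and Axl, a receptor tyrosine kinase, ran from 19.8 to 80.3 CPM between the same libraries. Axin2 was most like Ttc30b (0.992), Shroom4 (0.990) and Yipf7 (0.988), of which Shroom4 was at 0.193 CPM in tumour MDC and 18.3 CPM in wild type DKK1. Znrf3, with its narrow range, was most like Cyb561d2 (0.981), Pcgf5 (0.948) and Shisa4 (0.946). These are the highest of many correlations over 7 libraries that share 1 wild type pair and differ in cell markers, and they are given as a description.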

How the data were processed

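The authors deposited 1 table per library with raw read counts per gene, a gene length in bases and RPKM, which follows from those counts and lengths: recomputing it reproduced deposited RPKM to 0.000495% where a gene had at least 100 counts. Per the submitters' processing notes, reads were aligned with HISAT2 2.1.0 to mm10. The sources used here name no counting program, annotation or strand setting. Counts were scaled by TMM over all 9 libraries, and edgeR 4.0.16 (R 4.3.3) gave CPM and, with prior count 2, log2 CPM.

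The quasi-likelihood test of edgeR used the 7 muscle libraries (15269 genes after filterByExpr with a minimum count of 10) and, for tissue, all 9 (16711 genes), with 1 coefficient per group, and p-values were adjusted by Benjamini-Hochberg over all genes tested. The SE given with a log2 change was worked back from the test, as the size of the change divided by the square root of its F statistic. The wild type muscle pair was the source of the 1 residual degree of freedom, and groups with 1 library are taken to have its spread. The labels do not say that libraries come from separate animals, so p-values measure only the spread between these libraries. The size rule asked for 2-fold and 100 counts in the higher library, against both wild type libraries in turn when these were the reference, and a mean log2 change averages those references. A gene counted as assessed if any library of the comparison had 100 counts. Ratios carry exact conditional binomial 95% intervals; intervals, and the limit of 3 counts set for a count of 0, cover counting error only. The fit was tested on simulated data. Gene positions are from GENCODE M21 (GRCm38) and upstream sequences from RefSeq (GRCm38.p6).

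Genes were named by rule: all 10 members, up to 2 genes in each direction per pathway list by size of change, and the 3 genes most like each member with 100 counts in a muscle library. The members and lists were chosen with earlier results of these data known. Alternatives were scaling by total counts, DESeq2 1.42.0 size factors or TMM within each tissue, the DESeq2 and limma-voom (limma 3.58.1) tests, no filter, a minimum of 30 counts, a 1.5-fold rule, a prior count of 0.5 and leaving out each wild type muscle library.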

Additional observations from a re-analysis of the deposited data

How the results depend on the processing

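No member changed direction where it had been called. Members past the size rule went from 0 to 2 (Nkd1 and Sfrp5) for tumour PBS against wild type muscle without wild type library 2 and stayed at 0 without library 1, and from 0 to 1 (Axin2) for tumour MDC against wild type without library 1 and stayed at 0 without library 2. For wild type DKK1 against PBS they were 2 without library 1 and 3 without library 2, for knockout PBS 0 without either, and for tissue 6 and 5 against 4. In kidney a 1.5-fold rule gave 3 members in place of 2 (adding Sp5 as lower), and for tissue a minimum of 30 counts gave 5 in place of 4 (adding Axin2 as lower in kidney). For MDC against PBS a minimum of 30 counts (adding Tcf7) or a 1.5-fold rule (adding Nkd1) gave 2 members in place of 1. For knockout DKK1 against knockout PBS, scaling by total counts (Sfrp5), a minimum of 30 counts (Rnf43) or a 1.5-fold rule (Sfrp5) gave 1 in place of 0, and for knockout DKK1 against wild type DKK1 a minimum of 30 counts gave 4 in place of 2 (adding Tcf7 and Rnf43).

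Genes called, 0 by edgeR in muscle, became by DESeq2 12 for tumour PBS, 11 for MDC against wild type, 4 for wild type DKK1, 19 for knockout PBS, 6 for knockout DKK1 against wild type DKK1, 3 for the interaction of DKK1 and knockout and 9 for that of tumour and tissue. Without a filter edgeR called 28, 36, 18, 39, 24 and 16 in the first 6 of these, and 11 for knockout DKK1 against knockout PBS; scaling by total counts gave 5 for tumour PBS and 1 for knockout PBS. No member was among them, and limma-voom called 0 in each muscle contrast. For tissue, Notum was called under all 6 alternatives and Sp5 under all but DESeq2; Rnf43 was called by DESeq2 and with total-count scaling, and Sfrp5 by DESeq2.

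All genes past the size rule depended on the wild type library: 196 for tumour PBS became 1763 without library 1 and 1211 without library 2, 150 for MDC against wild type became 2489 and 591, 304 for wild type DKK1 became 487 and 3732, and 148 for knockout PBS became 1057 and 1572. A 1.5-fold rule gave 568, 589, 1072 and 583 in these 4, 3061 in place of 1248 in kidney, 1669 in place of 497 for MDC against PBS, 1058 in place of 314 for knockout DKK1 against PBS and 3261 in place of 1472 between the DKK1 libraries. A minimum of 30 counts gave 379, 324, 494 and 295 in the same 4, and 987 and 758 for MDC against PBS and knockout DKK1 against PBS. Scaling by total counts gave 715 for wild type DKK1 and 810 for MDC against PBS. It moved the median log2 change of all genes by 0.63 for tissue (TMM within each tissue by 0.51), 0.47 for wild type DKK1, -0.27 for MDC against PBS and between the DKK1 libraries, 0.17 for tumour PBS, 0.13 for knockout DKK1 against PBS and -0.10 for MDC against wild type. The split of higher and lower genes went with it from 3204 and 1843 to 4530 and 1155 for tissue (4366 and 1270 with TMM within each tissue), from 151 and 45 to 188 and 27 for tumour PBS, from 124 and 373 to 61 and 749 for MDC against PBS, and from 308 and 1164 to 157 and 1761 between the DKK1 libraries. No paired analysis was possible because every group but wild type PBS muscle holds 1 library, so no 2 groups share more than 1 replicate number. Lgr5, Lef1 and Tcf7 and, between muscle libraries, Notum, Sp5 and Rnf43 stayed under 100 counts, so the size rule could not assess them.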
